A study of Homo sapiens with 18 samples.

Results

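The genes described here encode the nuclear subunits of the respiratory chain and ATP synthase, and they were measured by bulk RNA-seq in L3.6pl cells, a human pancreatic cancer line. They are the 82 rows, of 26485 in the deposited expression table, whose symbols carry the family names NDUF, SDH, UQCR, COX (the numbered structural subunits) or ATP5, after 2 pseudogene names were left out. By name they fall into complex I with 37 genes, complex II with 4, complex III with 9, complex IV with 14 and complex V with 18. The names are not a perfect guide to the proteins. ATP5S and ATP5SL, now called DMAC2L and DMAC2, are not structural subunits of ATP synthase, NDUFA4 is counted with complex I here although its protein is now placed in complex IV, and the subunit genes COX4I1, CYC1 and NDUFAB1 have other names and were followed separately.

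The study held 6 groups of 3 libraries. GemR cells are a gemcitabine-resistant derivative of L3.6pl that was kept in 64 nM gemcitabine, and Par cells are the parental line. The groups were GemR with siRNA against STIM1 (siSTIM1) under thapsigargin, GemR siSTIM1 under vehicle, GemR with control siRNA (siCont) under thapsigargin, GemR siCont under vehicle, Par with control siRNA under thapsigargin, and Par with control siRNA under vehicle. All cells, parental ones included, carried an siRNA for 48 h, thapsigargin was given at 500 nM for 3 h, and the vehicle was DMSO. Thapsigargin blocks the calcium pump of the endoplasmic reticulum and empties that store, and STIM1 is the sensor that opens calcium entry when the store is low. Only 1 resistant derivative was studied, so resistance, growth in the drug and other differences of that derivative cannot be told apart, and STIM1 was depleted only in resistant cells. The labels name a single siSTIM1 condition, so loss of STIM1 and other effects of that siRNA cannot be told apart either.

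Complexes I and II pass electrons from NADH and succinate to ubiquinone, complex III passes them to cytochrome c, and complex IV passes them to oxygen. Complexes I, III and IV pump protons across the inner mitochondrial membrane, and complex V, the ATP synthase, lets them back through its membrane rotor to make ATP. Most subunits are nuclear genes that must be produced in step with the few subunits encoded by mitochondrial DNA. Complex I has a conserved catalytic core surrounded by many small accessory subunits, and complex II, succinate dehydrogenase, is also an enzyme of the citric acid cycle and is encoded by nuclear genes alone.

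Values are the authors' normalized counts, that is read counts per gene divided by a size factor per library. The libraries held between 8922439 and 16519239 reads in genes, and the 82 genes took between 0.873% and 1.52% of them. STIM1 averaged 309.8 ± 40.8 normalized counts in GemR siSTIM1 thapsigargin cells and 382 ± 23.7 in GemR siSTIM1 vehicle cells, against 6186 ± 115 in GemR siCont thapsigargin cells, 5890.4 ± 793 in GemR siCont vehicle cells, 431 ± 15.1 in Par thapsigargin cells and 457 ± 20.6 in Par vehicle cells (SD, n = 3 each), so the knockdown libraries averaged below the Par libraries. DDIT3, a transcription factor gene induced by stress of the endoplasmic reticulum, had log2 fold changes of thapsigargin over vehicle of 4.32 in GemR siSTIM1, 3.35 in GemR siCont and 5.29 in Par cells, so this readout of the treatment differed in size between the settings. Of 5 epithelial markers the keratin KRT8 averaged between 13141 and 25228 over the groups, KRT18 between 7081 and 13631 and KRT19 between 13136 and 27109. EPCAM averaged between 2444 and 6278, and CDH1 between 83.9 (GemR siCont vehicle) and 534. In limma 4 of the 5 were lower in GemR siCont than in Par vehicle cells (adjusted p below 0.05), where 20.1% of all tested genes were. Markers of other cell types were listed as well. Of 5 fibroblast markers COL1A1 averaged between 1059 and 3022 over the groups, COL1A2 between 3.46 and 71.7, and the others at most 0.92, with DCN at 0. Of the immune markers CD68 averaged between 101 and 168, and PTPRC, CD3E and ITGAM at most 2.04. Of 5 endothelial markers PECAM1 averaged between 61.4 and 150.3, CDH5 between 32.8 and 147, and the others at most 6.7. The part of such cells or genes in the results was not tested. In bulk libraries, fewer cells of a kind and less RNA per cell cannot be told apart, and since the libraries are labelled by number only, p-values measure the spread between these libraries.

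One library stood apart before any comparison. In GemR siCont vehicle library 1, the median of the 75 tested genes lay 0.63 above each gene's mean over all libraries on the log2 scale, against 0.08 in library 2 and 0.02 in library 3 of the same group. The 82 genes took 1.52% of its reads, against 1.15% and 1.12% in libraries 2 and 3. Its deviation from its own group fell with transcript length over 12792 genes (Spearman rho = -0.61), and the next steepest fall was that of GemR siSTIM1 thapsigargin library 1 (rho = -0.49). Deviations within a group sum to 0, and GemR siCont vehicle libraries 2 and 3 rose with length against library 1 (rho = 0.44 and 0.54). Subunit transcripts are short, with a median of 750 bases against 2537 for the other tested genes, so this trend moves with the level of nearly all of them. What produced the trend was not tested, and counts and leading genes of the comparisons that use library 1 of GemR siCont vehicle are also given without it.

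**Figure D1:**
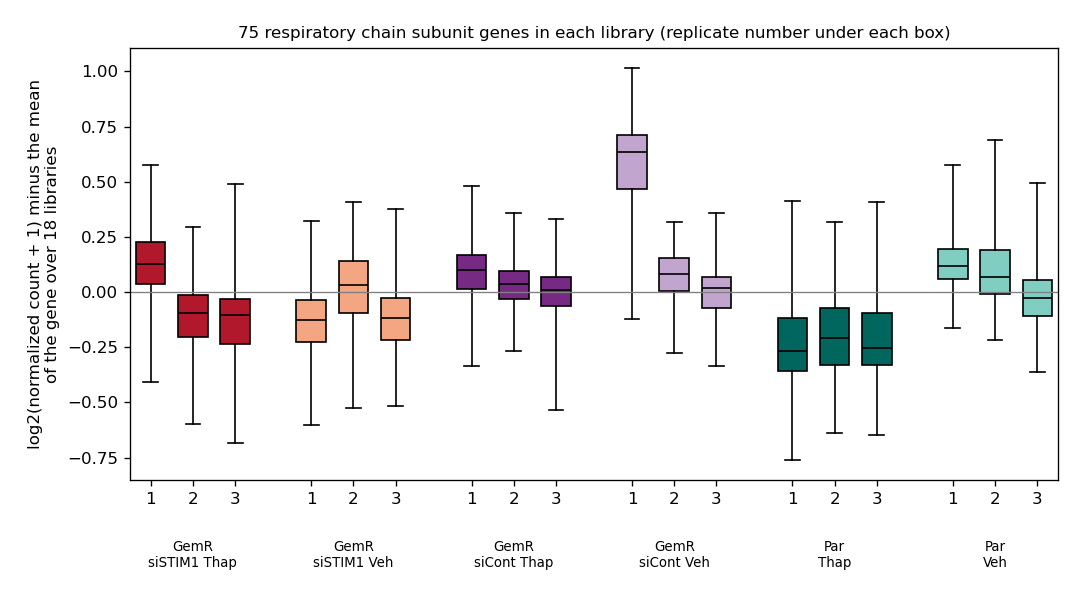
Boxes give the log2(normalized count + 1) of the 75 tested subunit genes minus each gene's mean over the 18 libraries, one box per library (line: median, box: quartiles, whiskers: range). Library 1 of GemR siCont vehicle has a median of 0.63, and the 3 Par thapsigargin libraries have the lowest medians, between -0.27 and -0.21.

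**Figure D2:**
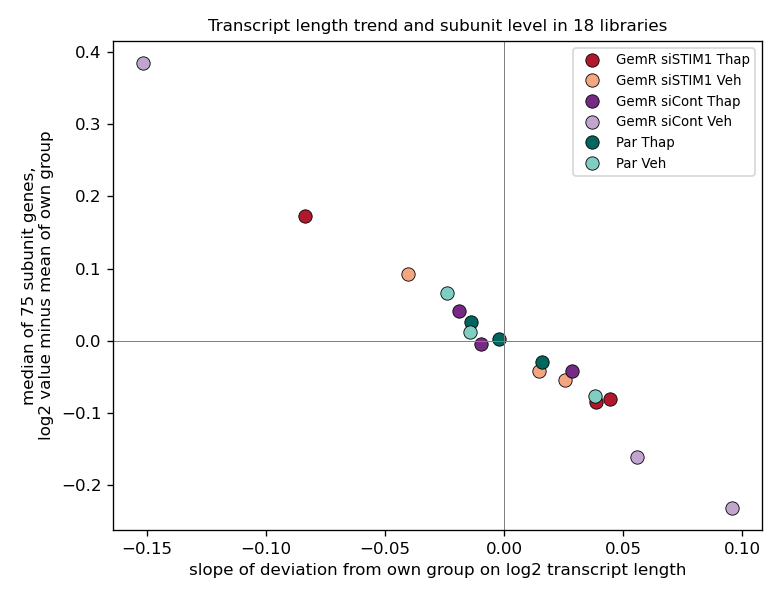
Each point is a library: the x axis gives the slope of its deviation from its own group on log2 transcript length over 12792 genes, and the y axis the median deviation of the 75 subunit genes from their group mean (log2). GemR siCont vehicle library 1 lies at a slope of -0.15 and a deviation of 0.38, GemR siSTIM1 thapsigargin library 1 at -0.08 and 0.17, and GemR siCont vehicle library 3 at 0.10 and -0.23 lies at the other end of the same line.

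Levels spanned a wide range among the subunits. Among the tested genes and per kilobase of transcript, the highest gene of complex V was ATP5B, the catalytic beta subunit of the F1 head, at 10070.0 normalized counts averaged over the 18 libraries, and the lowest structural one was ATP5E, the small epsilon subunit, at 486. Length was the median over a gene's annotated transcripts, 1878 bases for ATP5E, so these rankings depend on the annotation. Without division by length the lowest structural gene was ATP5J2 at 618, and ATP5E averaged 913. In complex IV the highest was COX8A at 8435 and the lowest COX6A1 at 1507 per kilobase. In complex III these were UQCRH, the hinge protein, at 3284 and the Rieske iron-sulfur protein UQCRFS1 at 212, and in complex II SDHB at 1463 and SDHD at 546. Complex I ran from NDUFV3 at 109.6 to NDUFB9 at 5274 per kilobase.

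The isoform genes showed which version of each subunit these cells used. The ubiquitous COX6A1 averaged 862 normalized counts, while its heart and muscle counterpart COX6A2 had 0 reads in all 18 libraries, of 241940049 reads in genes, which allows up to 3 reads over all libraries. COX7A2 averaged 1979.9 against 0.55 for the muscle isoform COX7A1, and COX6B1 averaged 1653 against 2.8 for the testis isoform COX6B2. COX6B2 was not even over the groups: it had 5.93, 9.39 and 4.03 normalized counts in GemR siSTIM1 thapsigargin libraries and 10.3, 7.05 and 4.29 in GemR siCont thapsigargin libraries, and at most 2.23 in any other library. COX7B averaged 2054 against 0.1 for COX7B2, COX8A 4276 against 0.2 for COX8C, and UQCRH 1984 against 4.74 for its near copy UQCRHL. These 6 low genes and ATP5L2, at 0.72, fell below the mean of 10 normalized counts set for testing, which left 75 of the 82 genes. All 3 genes for the identical mature subunit c of the ATP synthase rotor were on, with ATP5G3 at 4427, ATP5G2 at 3343 and ATP5G1 at 1252.

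In parental cells, 3 h of thapsigargin went with lower levels of many subunit genes, most of them in complexes I and V, the complexes with the most tested genes. Of the 75 tested subunit genes 32 fell and 0 rose, where 19.7% of all 13096 tested genes fell and 20.5% rose (40.1% either way), calling a gene at a Benjamini-Hochberg adjusted p below 0.05 in limma. The median log2 fold change over the subunit genes was -0.30, against -0.02 over all tested genes, and 72 of 75 estimates were negative. Other genes whose transcripts were as short as the middle of the subunits' range, from 580.5 to 1175.5 bases, had a median of -0.17, and 27.6% of them fell. By complex, 16 of 37 genes of complex I fell, 1 of 4 of complex II, 3 of 8 of complex III, 2 of 9 of complex IV and 10 of 17 of complex V, so that the called counts of complexes II and IV were near the share over all genes. The medians differed less, at -0.28, -0.21, -0.32, -0.30 and -0.31 from complex I to V, and all 9 estimates of complex IV were negative. With the trend on transcript length removed from every library, 30 of the 75 genes fell (22.6% of all genes in that setting) with a median of -0.15, and in complex II 0 of 4 fell. When GemR siCont vehicle library 1 was left out, which enters this comparison only through the shared estimate of the spread, 57 genes fell, among them 3 of 4 in complex II and 9 of 9 in complex IV (24.2% of all genes).

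The ATP synthase rotor gene ATP5G1 fell most. It had 721, 864 and 850.5 normalized counts in Par thapsigargin libraries, against 1408, 1268 and 1273 in Par vehicle libraries, so the groups did not overlap. Its log2 fold change was -0.70 ± 0.13 (SE, adjusted p = 0.000215). Of the other rotor genes, ATP5G3 stood at -0.52 ± 0.10 (SE, adjusted p = 0.000567) and ATP5G2 at -0.22 ± 0.11 (SE, adjusted p = 0.119), and ATP5G2 did not pass. Among the 7 genes for the stalks and membrane part of the synthase 6 fell, with a median of -0.44, and ATP5I, the membrane subunit e, stood at -0.55 ± 0.14 (SE, adjusted p = 0.0033). Of the 5 genes of the catalytic F1 head, ATP5C1 (gamma) and ATP5E (epsilon) fell at -0.28 and -0.40, calls that were each lost without any 1 of 4 Par libraries (vehicle libraries 1 and 2 and thapsigargin library 1 for both, with thapsigargin library 2 for ATP5C1 and 3 for ATP5E). The alpha and beta genes ATP5A1 and ATP5B had log2 fold changes of -0.12 and -0.04, which did not pass. Over all tested genes 19.7% fell. With both libraries of steepest fall left out, 4 of the 5 F1 genes and all 3 rotor genes were called lower. So were all 7 genes of the stalks and membrane part, where 6890 of all 13096 tested genes were called either way.

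Complex I was also divided by role, and these groups, like those of the synthase, were drawn after the values were seen. None of the 7 nuclear genes of its catalytic core was called in Par cells (median log2 fold change -0.12, range -0.16 to 0.11). Of its 30 accessory genes 16 fell (median -0.36), where 19.7% of all tested genes fell. A set of 7 genes is small against that share. The accessory genes are shorter, with a median transcript length of 755.5 bases against 1039 for the core. With the trend on transcript length removed from every library the medians were 0.03 for the core and -0.22 for the accessory genes, and again 0 of 7 and 16 of 30 were called. With both libraries of steepest fall left out, 2 of the 7 core and 26 of the 30 accessory genes were called lower, where 6890 of all 13096 tested genes were called either way. NDUFS1, which carries iron-sulfur clusters in the core, had 2179.6, 2115 and 2148 normalized counts in Par thapsigargin libraries and 1960.4, 2105 and 1919 in Par vehicle libraries. NDUFA2, an accessory subunit of the same matrix arm, had 558, 595 and 591 in Par thapsigargin libraries, against 944, 923 and 886 in Par vehicle libraries. The thapsigargin libraries of NDUFS1 lay slightly above those of vehicle, while those of NDUFA2 lay far below, and NDUFA2 fell by 0.66 ± 0.15 on the log2 scale (SE, adjusted p = 0.00159). NDUFB3 and NDUFB1, small subunits of the membrane arm, fell with log2 fold changes of -0.60 ± 0.12 and -0.57 ± 0.16 (SE).

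In complex III, the small subunit gene UQCR10 had 1038, 979 and 968 normalized counts in Par thapsigargin libraries, against 1492, 1599 and 1509 in Par vehicle libraries. It fell by 0.62 ± 0.13 on the log2 scale (SE, adjusted p = 0.000808), while the large core proteins UQCRC1 and UQCRC2 had -0.14 and -0.10 and were not called. In complex IV, COX7B had 1396, 1423 and 1439 in Par thapsigargin libraries and 2194, 2118 and 1850.1 in Par vehicle libraries, and fell by 0.53 ± 0.13 (log2, SE, adjusted p = 0.00342). COX6B1, which faces the intermembrane space, also fell, at -0.46 ± 0.13 (SE, adjusted p = 0.00706). In complex II, SDHC, one of the membrane anchors, was called at -0.23 ± 0.08 (SE, adjusted p = 0.0346), and without each of Par vehicle libraries 1 and 2 and Par thapsigargin libraries 1 and 3 in turn it was not.

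The count of 32 dropped to 18 without Par vehicle library 1 and to 21 without Par thapsigargin library 1, all of them lower, and 17 of the 32 genes stayed called whichever single Par library was left out. Leaving out both libraries of steepest fall, neither of them parental, brought the count to 61, all lower. Of all 13096 tested genes that setting called 6890 either way, against 5253 with all 18 libraries. In the authors' deposited table of the same comparison 31 subunit genes were lower and 0 higher at an adjusted p below 0.05, and ATP5G1 stood at a log2 fold change of -0.70.

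**Figure D3:**
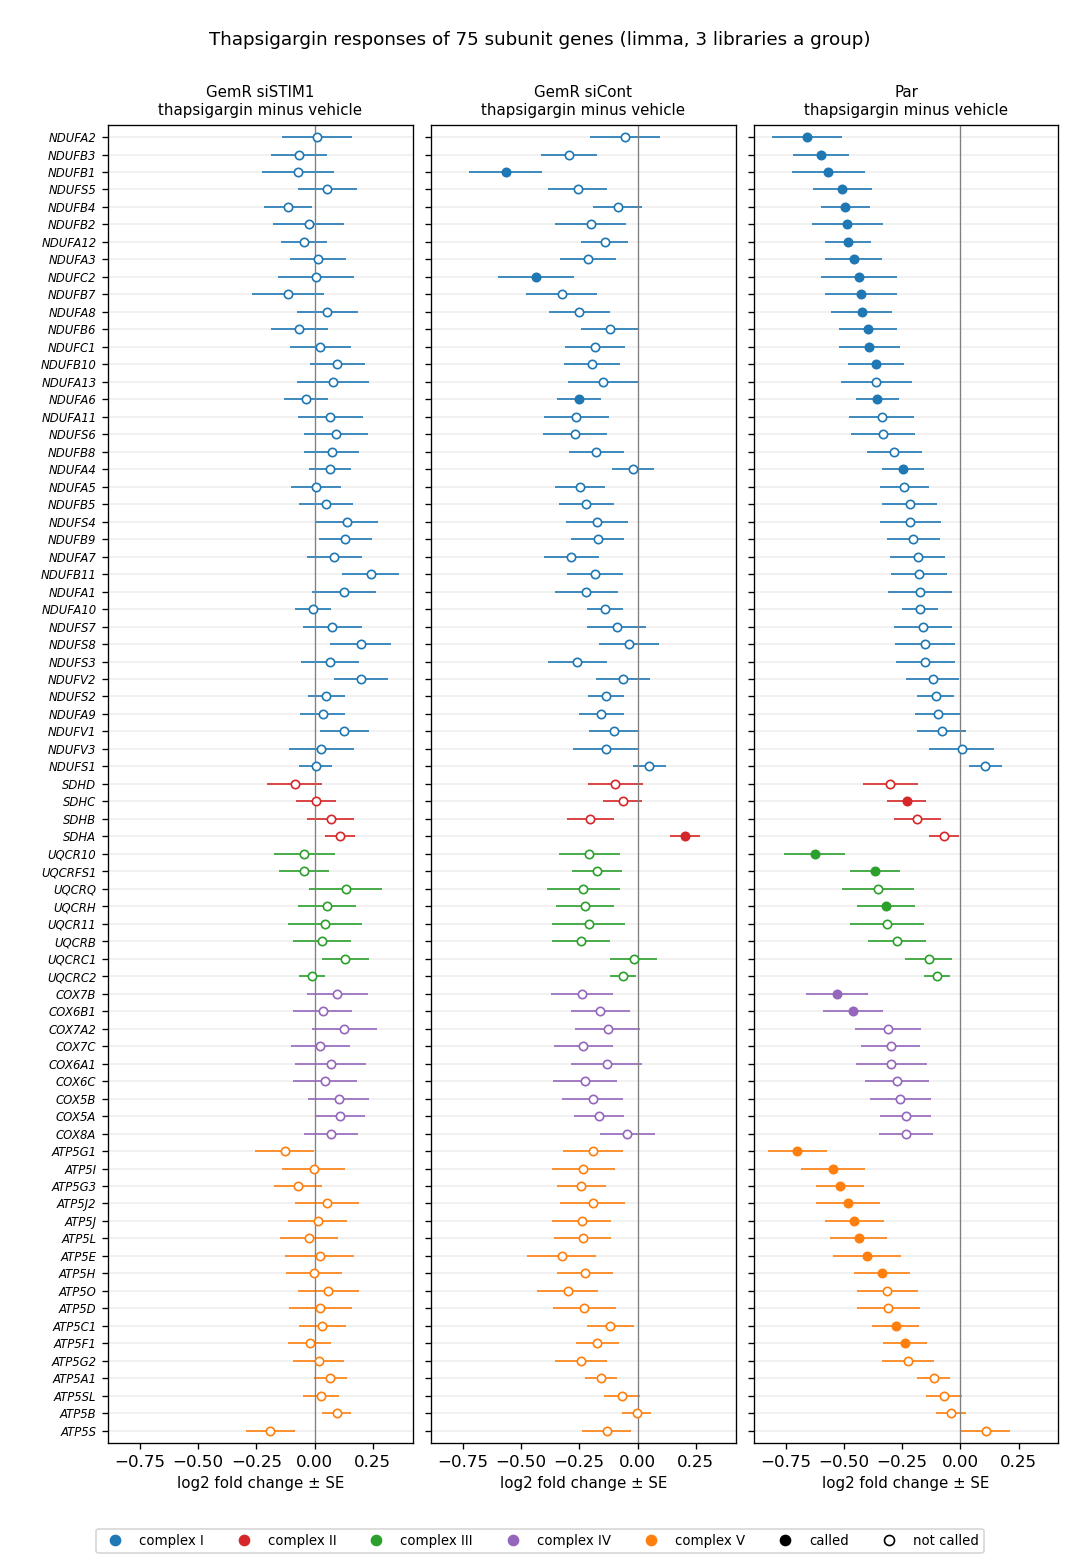
Log2 fold change of thapsigargin over vehicle (x axis, ± SE) for each of the 75 tested subunit genes (y axis, grouped by complex and ordered by the Par response), from left to right in GemR siSTIM1, GemR siCont and Par cells; filled points passed the adjusted p of 0.05. In Par cells 32 points are filled, all to the left of 0, against 4 in GemR siCont cells and 0 in GemR siSTIM1 cells.

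In GemR siCont cells the same treatment moved few subunit genes past the test. Of 75 genes 3 fell and 1 rose, where 15.8% of all tested genes fell and 17.9% rose, and the median log2 fold change was -0.19 (-0.02 over all tested genes). Other genes of similar transcript length had a median of -0.15, and 16.2% of them fell. NDUFB1 had 388, 401 and 390.0 normalized counts in GemR siCont thapsigargin libraries, against 829.6, 493 and 482 in GemR siCont vehicle libraries, and fell by 0.57 ± 0.16 on the log2 scale (SE, adjusted p = 0.00838). All its thapsigargin libraries lay below all its vehicle libraries, of which library 1 was by far the highest. Without that library its log2 fold change was -0.31 (adjusted p = 0.036). NDUFA6 and NDUFC2, further accessory subunits of complex I, were called at -0.25 and -0.43, but not without vehicle library 1, nor without either of thapsigargin libraries 2 and 3, and NDUFC2 also not without thapsigargin library 1 or vehicle library 2. NDUFC2 shares its locus with the read-through gene NDUFC2-KCTD14, listed at 0 in all libraries, so the division of its reads is uncertain. Without vehicle library 1 NDUFA6 and NDUFC2 stood at -0.11 and -0.20.

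The 1 gene that rose was SDHA, the flavoprotein that oxidises succinate. It had 2521, 2432 and 2589 normalized counts in GemR siCont thapsigargin libraries, against 2401, 2066 and 2099 in GemR siCont vehicle libraries, without overlap, for a log2 fold change of 0.20 ± 0.07 (SE, adjusted p = 0.0221). That call was lost in turn without vehicle library 2 or 3 or thapsigargin library 1 or 3, and without vehicle library 1 the value was 0.27. The median over the 75 genes was -0.01 without vehicle library 1 (1 higher, 1 lower), and the count of called genes ran to 9 without vehicle library 2 and to 37, all lower, without vehicle library 3. Leaving out any 1 thapsigargin library gave 2.

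In GemR siSTIM1 cells, none of the 75 genes was called for thapsigargin by limma, edgeR or DESeq2, where 11.9% of all tested genes fell and 12.5% rose. The unadjusted p was below 0.05 for 0 of them, and the median log2 fold change was 0.04 with a range of -0.19 to 0.24. ATP5G1 had 1490.5, 1195 and 1164 normalized counts in GemR siSTIM1 thapsigargin libraries and 1315, 1478 and 1393 in GemR siSTIM1 vehicle libraries, which overlapped. With both libraries of steepest fall left out 3 genes were lower, among them 2 of the 3 rotor genes. With GemR siCont vehicle library 1 alone left out of the shared spread, 2 complex I genes were higher, where 15% of all tested genes were.

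The responses were also compared with each other. In the difference of responses, GemR siCont minus Par, 0 of the 75 genes passed by limma, edgeR or DESeq2 (7.14% of all tested genes were higher and 7.66% lower), and 6 had an unadjusted p below 0.05, all higher. The median difference was 0.10, and the nearest to the threshold were SDHA at 0.27 ± 0.09 (SE, adjusted p = 0.0558), NDUFA2 at 0.60 ± 0.21 (SE, adjusted p = 0.0621) and ATP5G1 at 0.51 ± 0.18 (SE, adjusted p = 0.0671). Without GemR siCont vehicle library 1 there were 33 called genes, all with a higher response in GemR siCont cells (background 11.1% higher), and the median difference was 0.29. In that setting NDUFA2 stood at 0.88 and ATP5G1 at 0.70. With the length trend removed from every library and none left out, 9 genes were called, all higher, NDUFA2 at 0.59 and ATP5G1 at 0.47.

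The difference of responses, GemR siSTIM1 minus GemR siCont, held 0 called genes by limma, edgeR or DESeq2, with 4 at an unadjusted p below 0.05 (1.5% of all tested genes were higher and 2.9% lower, 4.41% either way). Its median was 0.23, and 0.04 without GemR siCont vehicle library 1, where again 0 genes were called. Without GemR siCont vehicle library 3, 2 genes were called.

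Without thapsigargin, resistant and parental cells differed in single subunit genes, in a number near or below the share over all genes. In vehicle, 15 of 75 genes were higher and 4 lower in GemR siCont than in Par cells, where 18.1% of all tested genes were higher and 20.1% lower (38.2% either way), and the median log2 fold change was 0.17. Under thapsigargin 36 were higher and 2 lower (background 23.2% higher and 25% lower), with a median of 0.29. Of the other genes of similar transcript length, 24.9% were higher in vehicle and 30.7% under thapsigargin, with medians of 0.15 and 0.16. These arms share no library, and 13 of the genes called higher were shared, 86.7% of the vehicle list and 36.1% of the thapsigargin list. Both genes that were lower under thapsigargin, UQCRFS1 and ATP5SL, were also among the 4 lower in vehicle, and 0 genes were called in opposite directions.

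UQCRQ, a small complex III subunit, led the genes higher in vehicle. It had 2561, 1505 and 1393 normalized counts in GemR siCont vehicle libraries, against 1173, 1099.9 and 1078 in Par vehicle libraries, for a log2 fold change of 0.65 ± 0.16 (SE, adjusted p = 0.0027). Under thapsigargin it had 1591, 1464 and 1419 in GemR siCont libraries, against 840.5, 926 and 857 in Par libraries, or 0.77 ± 0.16 (SE, adjusted p = 0.000456). No GemR siCont library overlapped a Par library in either arm, and without GemR siCont vehicle library 1 the vehicle value was 0.38 (adjusted p = 0.00354). NDUFA4 had 3059.9, 2321 and 2476 in GemR siCont vehicle libraries and 1862, 1839 and 1779.9 in Par vehicle libraries, at 0.51 ± 0.09 (SE, adjusted p = 0.00017) in vehicle and 0.73 ± 0.09 (SE, adjusted p = 1.71e-06) under thapsigargin. NDUFS4, an accessory subunit of the NADH-oxidising end of complex I, was higher by 0.50 in vehicle and 0.54 under thapsigargin. With GemR siCont vehicle library 1 left out the vehicle values were 0.39 for NDUFA4 and 0.34 for NDUFS4, both still called.

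The Rieske gene UQCRFS1 went the other way. It had 877, 622 and 653 normalized counts in GemR siCont vehicle libraries, against 1074, 1162 and 945 in Par vehicle libraries, a log2 fold change of -0.57 ± 0.11 (SE, adjusted p = 0.000312), and -0.38 ± 0.11 (SE, adjusted p = 0.00641) under thapsigargin. NDUFA3, an accessory complex I subunit, and SDHA were also lower in vehicle, NDUFA3 at -0.42 ± 0.12 (SE, adjusted p = 0.0101), lost without GemR siCont vehicle library 3, and SDHA at -0.24 ± 0.07 (SE, adjusted p = 0.00648). SDHA had 2401, 2066 and 2099 in GemR siCont vehicle libraries and 2578, 2649.6 and 2522 in Par vehicle libraries, and under thapsigargin its log2 fold change was 0.03 ± 0.07 (SE, adjusted p = 0.739). Without GemR siCont vehicle library 1 the vehicle values were -0.73 for UQCRFS1, -0.59 for NDUFA3 and -0.31 for SDHA, all called.

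The largest difference under thapsigargin was that of NDUFA2, with 1174, 1116 and 1043 normalized counts in GemR siCont libraries, against 558, 595 and 591 in Par libraries (0.93 ± 0.15, SE, adjusted p = 4.27e-05). Without GemR siCont vehicle library 1 the vehicle comparison gave 5 higher and 10 lower genes and a median of 0.01, where 17.6% of all tested genes were higher and 20.2% lower. The thapsigargin comparison holds neither library of steepest fall, and 25 of its 38 genes stayed called whichever single one of its 6 libraries was left out. Its count was 25 without GemR siCont thapsigargin library 1, and with the length trend removed it was 31 higher and 9 lower. The vehicle count was 10 without Par vehicle library 3 and 37 without GemR siCont vehicle library 3.

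Depleting STIM1 in resistant cells went with lower levels of many subunit genes in vehicle and of a few under thapsigargin. In vehicle, 36 of 75 genes fell and 2 rose in siSTIM1 against siCont cells, where 21.1% of all tested genes fell and 20.9% rose (42% either way), and the median log2 fold change was -0.29. Under thapsigargin 8 fell and 3 rose, fewer than the share over all genes (18.9% and 17.7%), with a median of -0.07. Of the other genes of similar transcript length, 35.7% fell in vehicle and 16.5% under thapsigargin, with medians of -0.22 and -0.04. All 8 that fell under thapsigargin were among the 36 called lower in vehicle, 22.2% of that list, and the arms share no library. Of the 8, SDHB, SDHC and SDHD are 3 of the 4 genes of complex II, and the others were ATP5J2, COX7A2, NDUFA4, NDUFB3 and ATP5SL. NDUFA7 and NDUFV3 were the genes called higher in both arms.

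Complex II was the complex with the lowest median, -0.57 in vehicle and -0.39 under thapsigargin. SDHD, a membrane anchor that helps bind ubiquinone, had 372, 353 and 318 normalized counts in GemR siSTIM1 vehicle libraries, against 792, 499 and 564 in GemR siCont vehicle libraries. Under thapsigargin it had 343, 336 and 303 in GemR siSTIM1 libraries, against 561, 583 and 559 in GemR siCont libraries. All 6 knockdown libraries lay below all 6 control libraries and also below the Par libraries, whose lowest value was 413, and the log2 fold changes were -0.81 ± 0.12 (SE, adjusted p = 3.36e-05) in vehicle and -0.80 ± 0.12 (SE, adjusted p = 3.09e-05) under thapsigargin. SDHB, the iron-sulfur subunit, had 1277, 1337 and 1277 in GemR siSTIM1 vehicle libraries against 2587, 1799.7 and 1839 in GemR siCont vehicle libraries, and 1448, 1329 and 1309 in GemR siSTIM1 thapsigargin libraries against 1853, 1756 and 1723 in GemR siCont thapsigargin libraries. It fell by 0.66 ± 0.10 in vehicle and by 0.39 ± 0.10 under thapsigargin (log2, SE, adjusted p = 4.41e-05 and 0.00503), again without overlap. SDHC, the other anchor, had 489, 536 and 503 in GemR siSTIM1 vehicle libraries against 744, 722 and 655 in GemR siCont vehicle libraries, at -0.47 ± 0.08 (SE, adjusted p = 0.000221), and stood at -0.40 ± 0.08 (SE, adjusted p = 0.000904) under thapsigargin.

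SDHA was called in neither arm. It had 2396, 2438 and 2450.0 normalized counts in GemR siSTIM1 vehicle libraries and 2401, 2066 and 2099 in GemR siCont vehicle libraries, and its log2 fold changes were 0.15 ± 0.07 (SE, adjusted p = 0.0674) in vehicle and 0.06 ± 0.07 (SE, adjusted p = 0.512) under thapsigargin. The levels of the 4 genes of the complex over the 6 groups can be read from the plot of per-library values.

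**Figure D4:**
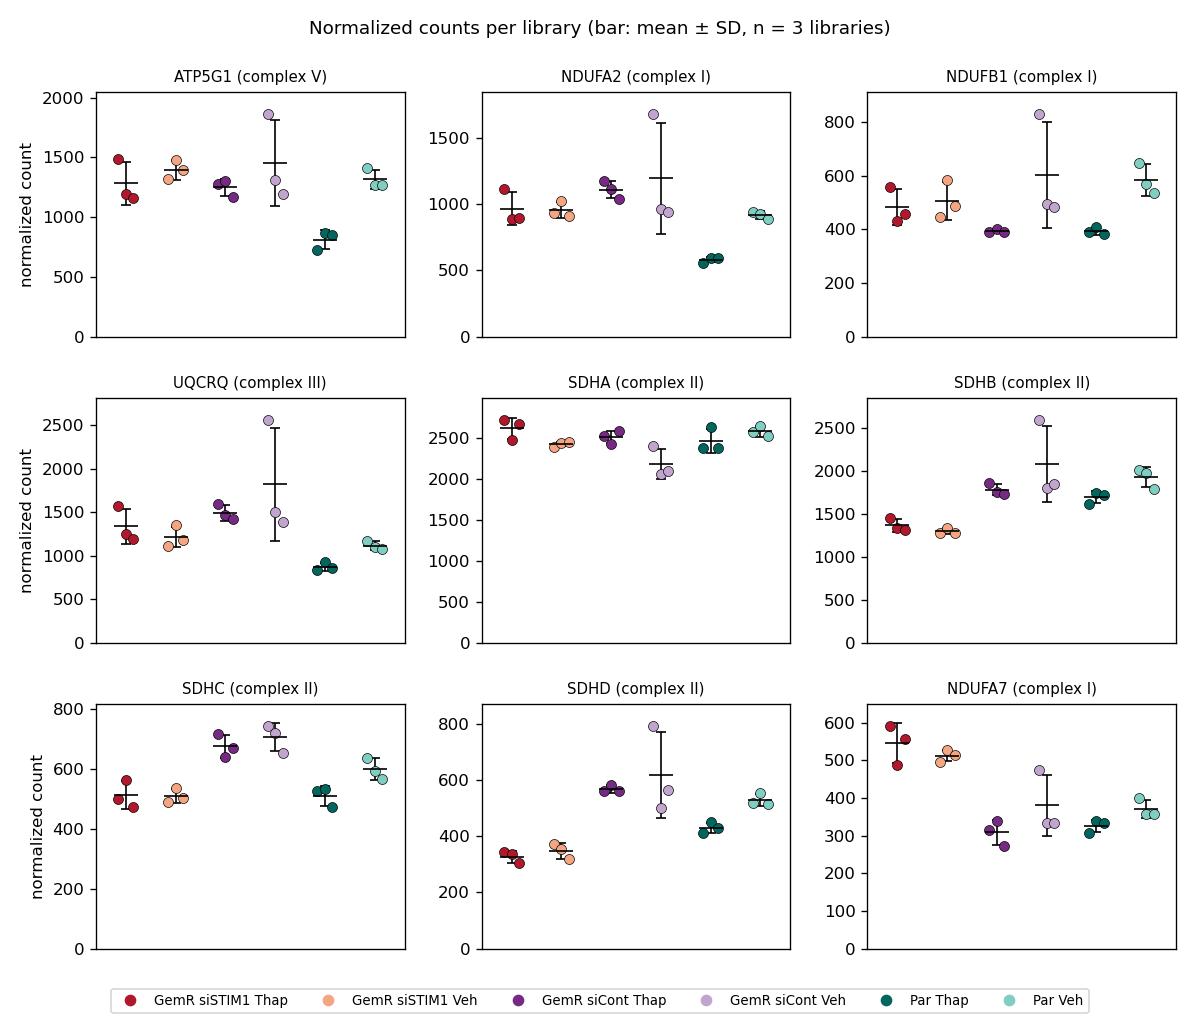
Normalized counts (y axis, from 0) of 9 subunit genes in every library, by group from GemR siSTIM1 thapsigargin on the left to Par vehicle on the right; points are libraries and bars the mean ± SD (n = 3). SDHD lies between 303 and 372 in the 6 GemR siSTIM1 libraries, against 499 to 792 in the 6 GemR siCont libraries, while NDUFA7 lies at 487 to 591 in the siSTIM1 libraries, against 273 to 474 in the siCont libraries.

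Among the other complexes, ATP5J2, the membrane subunit f of ATP synthase, fell most. It had 388, 409.7 and 425 normalized counts in GemR siSTIM1 vehicle libraries, against 1141, 716 and 755 in GemR siCont vehicle libraries, and 528, 389.6 and 367 in GemR siSTIM1 thapsigargin libraries, against 773, 732 and 729.7 in GemR siCont thapsigargin libraries. The groups did not overlap, and its log2 fold changes were -1.06 ± 0.14 (SE, adjusted p = 8.81e-06) in vehicle and -0.82 ± 0.14 (SE, adjusted p = 0.000125) under thapsigargin. ATP5J2 shares its locus with the read-through gene ATP5J2-PTCD1, listed at 0 in all libraries, so how reads were divided between them is uncertain. COX7A2, a small complex IV subunit, had 1386, 1546 and 1385 in GemR siSTIM1 vehicle libraries, against 3650.1, 2232 and 2129 in GemR siCont vehicle libraries, and fell by 0.85 ± 0.14 in vehicle and 0.59 ± 0.14 under thapsigargin (log2, SE, adjusted p = 0.000107 and 0.00246). NDUFA4 fell as well, at -0.58 in vehicle and -0.50 under thapsigargin. NDUFB3 stood at -0.59 and -0.37 in that order of arms, and its thapsigargin call was lost without any 1 of GemR siSTIM1 libraries 2 and 3 and GemR siCont libraries 1 and 3.

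NDUFA7, an accessory complex I subunit, was higher in every knockdown library than in any control library. It had 496, 527 and 514 normalized counts in GemR siSTIM1 vehicle libraries, against 474, 333 and 334 in GemR siCont vehicle libraries, and 591, 487 and 558 in GemR siSTIM1 thapsigargin libraries, against 314, 340.0 and 273 in GemR siCont thapsigargin libraries. Its log2 fold changes were 0.45 ± 0.12 (SE, adjusted p = 0.00573) and 0.82 ± 0.12 (SE, adjusted p = 2.42e-05), in that order of arms. Its exons overlap 89 bases of RPS28 on the other strand, and whether the counts used strand is not given in the sources used here. Other genes named above also overlap genes on the other strand. Among them are ATP5E with TUBB1 (1188 bases), SDHC with CFAP126 (774), ATP5I with MYL5 (579) and UQCRQ with GDF9 (306). NDUFB3 overlaps FAM126B (218), and NDUFA2 overlaps TMCO6 (124) and IK (70). NDUFV3, the small accessory subunit of the flavoprotein part of complex I, rose by 0.36 ± 0.14 in vehicle and 0.53 ± 0.14 under thapsigargin (log2, SE). Its vehicle call was lost without any 1 library except GemR siCont vehicle library 1, and its vehicle value ran between 0.25 and 0.55 over those settings.

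Without GemR siCont vehicle library 1 the vehicle comparison held 17 lower and 3 higher genes, with a median of -0.11. Of all tested genes 17.5% were then lower and 17.4% higher, so the share of lower subunit genes was much nearer to the background than with all libraries. In that setting ATP5J2, COX7A2, SDHD, SDHB, SDHC, NDUFA4 and NDUFB3 were still called lower, between -0.85 and -0.41, and SDHA was called higher at 0.22. The vehicle count of 38 was 20 without that library, 22 without GemR siSTIM1 vehicle library 1, 24 without GemR siSTIM1 vehicle library 3 and 62 without GemR siCont vehicle library 3. Under thapsigargin it was 17 without GemR siSTIM1 thapsigargin library 1, and with both libraries of steepest fall left out 34 genes fell and 4 rose.

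**Figure D5:**
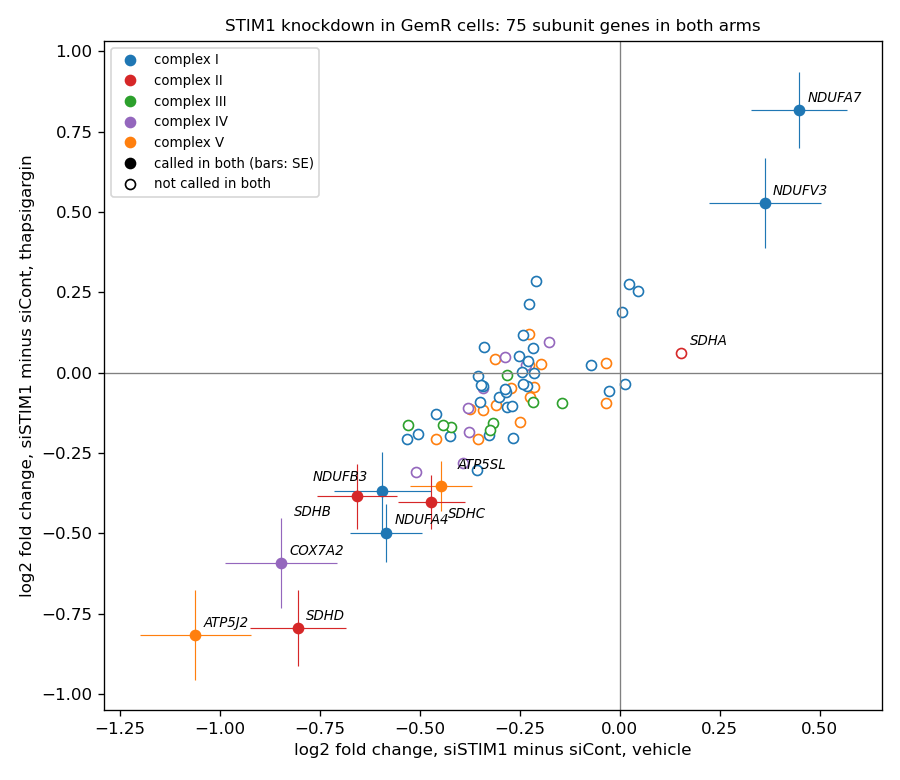
Log2 fold change of siSTIM1 over siCont in GemR cells in vehicle (x axis) and under thapsigargin (y axis), one point per tested subunit gene; filled and named points were called in both arms, bars are SE, and SDHA is named for comparison. The 8 genes called lower in both lie at the lower left, from ATP5J2 at -1.06 and -0.82 to ATP5SL at -0.45 and -0.35, and NDUFA7 at 0.45 and 0.82 and NDUFV3 at 0.36 and 0.53 lie at the upper right.

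Many genes for assembly of the chain fell in Par cells too. Of 51 assembly factors, which insert cofactors and join subunits, 25 fell and 3 rose there under thapsigargin (median log2 fold change -0.31), where 19.7% of all tested genes fell and 20.5% rose. COX16, COA3 and SCO2, all needed for complex IV, stood at -0.85 ± 0.20, -0.75 ± 0.12 and -0.72 ± 0.22 (SE), and COX19, a copper chaperone, rose at 0.59 ± 0.09. The level of SCO2 was low, with averages of 23.23 normalized counts in Par thapsigargin and 38.35 in Par vehicle cells. In GemR siCont cells 16 of the 51 fell and 2 rose (background 15.8% and 17.9%), and 9 fell and 2 rose without vehicle library 1 (background 14.8% and 16.6%). In GemR siSTIM1 cells 4 fell and 2 rose (background 11.9% and 12.5%), and 8 fell with GemR siCont vehicle library 1 left out of the shared spread (15.7%). In siSTIM1 against siCont cells 16 fell and 1 rose in vehicle (background 21.1% and 20.9%). Without GemR siCont vehicle library 1 these were 12 and 3 (background 17.5% and 17.4%). Under thapsigargin 10 fell and 8 rose, near the background of 18.9% and 17.7%. NUBPL, which delivers iron-sulfur clusters to complex I, and TACO1, which activates translation of a mitochondrial complex IV subunit, led both arms, at -1.52 ± 0.12 and -1.39 ± 0.12 in vehicle and at -1.51 ± 0.12 and -1.07 ± 0.12 under thapsigargin (log2, SE). Their vehicle values without GemR siCont vehicle library 1 were -1.53 and -1.24.

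Against 19.7% of all genes that fell and 20.5% that rose in Par cells under thapsigargin, 0 of 13 citric acid cycle genes fell and 1 rose, with a median of 0.02. With GemR siCont vehicle library 1 left out 2 fell and 3 rose (background 24.2% and 23.9%). The gene that rose with all libraries was OGDH, a subunit of the oxoglutarate dehydrogenase, at 0.26 ± 0.06 (SE, adjusted p = 0.00299). In the same comparison 4 of 14 tested regulators of mitochondrial biogenesis fell and 1 rose. Of the 7 tested subunit and related genes that carry other names 3 fell and 1 rose, the low NDUFA4 paralog NDUFA4L2. The coactivator gene PPARGC1B fell in all 3 settings, with log2 fold changes of -1.78 ± 0.22 (SE, adjusted p = 3.85e-06) in GemR siSTIM1 cells, -0.64 ± 0.22 (SE, adjusted p = 0.0317) in GemR siCont cells and -1.25 ± 0.22 (SE, adjusted p = 0.000151) in Par cells, and its GemR siCont value without vehicle library 1 was -0.98. TFAM, which packages mitochondrial DNA, was lower in GemR siCont than in Par vehicle cells (-0.28 ± 0.07, SE, adjusted p = 0.00281) and higher in siSTIM1 than in siCont vehicle cells (0.57 ± 0.07, SE, adjusted p = 2.36e-06). CYC1, the cytochrome c1 of complex III, fell under thapsigargin in Par cells (-0.25 ± 0.06, SE, adjusted p = 0.00401). It was lower in GemR siCont than in Par vehicle cells (-0.46 ± 0.06, SE, adjusted p = 1.22e-05) and higher in siSTIM1 than in siCont vehicle cells (0.23 ± 0.06, SE, adjusted p = 0.00835). With GemR siCont vehicle library 1 left out these vehicle values were -0.24 and 0.53 for TFAM and -0.50 and 0.27 for CYC1, in the same order and all called. Of the 13 listed subunit genes of mitochondrial DNA, 0 were found by name among the deposited expression values, so they were not analysed here.

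The start regions of these genes were read for 6 sequence motifs because many subunit genes fell together in Par cells. RefSeq windows of 300 bases on GRCh38.p14, from 250 before to 50 after the annotated start, were found for 65 of the 82 genes. NRF1, GABPA (an ETS factor) and YY1 are known regulators of respiratory genes, and their motifs were searched on both strands as GCGCA followed by any base and GCGC for NRF1, CCGGAAG for ETS factors and GCCATNTT for YY1. NRF1 letters were in 24.6% of the 65 windows, against 11.7% of the windows of the other tested genes and 6.29% of all 27305. ETS letters were in 27.7%, against 19.5% and 10.6%, and YY1 letters in 33.8%, against 10.2% and 6.81%. The CCAAT box (CCAAT) was in 36.9%, against 37.2% and 35.7%, the GC box (GGGCGG) in 55.4%, against 71.0% and 44.5%, and the cyclic AMP element (TGACGTCA) in 7.69%, against 3.35% and 1.97%. Matches to different motifs may share bases, and a match describes the sequence and not a bound site.

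At least 1 of the NRF1, ETS and YY1 motifs was in 17 of 26 windows of genes that fell (65.4%) and in 22 of 35 windows of tested genes not called (62.9%), against 35.3% of the other tested genes. The CCAAT box was in 12 of 26 windows of genes that fell (46.2%) and in 9 of 35 of genes not called (25.7%). In the same order, NRF1 letters were in 8 and 7 of these windows and the cyclic AMP element in 3 and 2. YY1 letters (7 and 15), ETS letters (7 and 11) and the GC box (13 and 22) had lower shares among genes that fell. Whether any of these shares differed was not tested. The 120 bases before the start are shown for the 4 genes with windows that fell most in Par cells and for 4 more that fell and hold an NRF1, ETS or YY1 match there, with motif letters in capitals, 5′ to 3′ on the gene's strand.
ATP5G1 (chr17:48892667-48892786, plus strand), 3 CCAAT boxes and a cyclic AMP element: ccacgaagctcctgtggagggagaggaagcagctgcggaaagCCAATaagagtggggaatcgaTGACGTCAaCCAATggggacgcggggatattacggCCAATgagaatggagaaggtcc
NDUFA2 (chr5:140647631-140647750, minus strand), a CCAAT box and a GC box: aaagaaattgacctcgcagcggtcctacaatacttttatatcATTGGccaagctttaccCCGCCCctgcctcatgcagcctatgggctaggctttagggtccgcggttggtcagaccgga
UQCR10 (chr22:29767249-29767368, plus strand), none of the 6 in this stretch: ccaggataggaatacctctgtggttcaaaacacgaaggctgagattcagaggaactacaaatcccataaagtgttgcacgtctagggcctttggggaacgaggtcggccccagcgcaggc
NDUFB3 (chr2:201071881-201072000, plus strand), none of the 6 in this stretch: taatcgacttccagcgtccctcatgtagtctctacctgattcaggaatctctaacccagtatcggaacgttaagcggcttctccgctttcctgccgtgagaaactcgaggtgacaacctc
COX7B (chrX:77899348-77899467, plus strand), YY1: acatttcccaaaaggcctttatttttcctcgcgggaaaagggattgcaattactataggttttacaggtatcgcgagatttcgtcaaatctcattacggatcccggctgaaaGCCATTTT
NDUFB4 (chr3:120596216-120596335, plus strand), NRF1: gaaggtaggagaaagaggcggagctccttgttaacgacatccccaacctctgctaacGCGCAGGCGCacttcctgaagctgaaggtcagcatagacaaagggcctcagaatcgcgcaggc
NDUFA12 (chr12:95003698-95003817, minus strand), NRF1: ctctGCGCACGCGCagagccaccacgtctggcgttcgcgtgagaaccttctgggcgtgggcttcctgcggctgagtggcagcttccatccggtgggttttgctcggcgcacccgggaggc
COX6B1 (chr19:35648203-35648322, plus strand), ETS: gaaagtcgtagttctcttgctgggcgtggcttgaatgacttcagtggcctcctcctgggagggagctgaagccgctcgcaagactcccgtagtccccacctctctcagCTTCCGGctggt
Of the genes called in both STIM1 comparisons only SDHD and NDUFA7, picked by hand, are shown, so they say nothing of the others. SDHD, which fell, holds an NRF1 and an ETS match, and NDUFA7, which rose, holds a GC box in the same stretch and a YY1 match elsewhere in its window of 300 bases. UQCR10 and NDUFB3 likewise hold matches outside the stretch shown, NRF1, YY1 and CCAAT in UQCR10 and a GC box in NDUFB3.
SDHD (chr11:112086753-112086872, plus strand), NRF1 and ETS: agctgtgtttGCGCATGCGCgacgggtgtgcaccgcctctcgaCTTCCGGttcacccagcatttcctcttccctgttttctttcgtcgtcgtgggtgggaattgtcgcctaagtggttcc
NDUFA7 (chr19:8321376-8321495, minus strand), GC box: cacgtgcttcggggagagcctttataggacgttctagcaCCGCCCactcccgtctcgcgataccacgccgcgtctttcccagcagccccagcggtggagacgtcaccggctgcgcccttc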

How the data were processed

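Total RNA (500 ng) was made into libraries with the TruSeq v2 kit, per the labels' protocols, and the submitters' processing notes name STAR 2.6.0c, HTSeq 0.11.1, DESeq2 and hg38. The authors deposited 1 table of normalized counts per gene (a signal scaled by a size factor per library) and tables of DESeq2 log2 fold changes with p-values and adjusted p-values, per the file headers. Values came out as whole reads in 100.0% of cases (tolerance 0.01) once each library's step was known, and reads of 17 libraries passed the check for count tests.

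Genes with a mean of at least 10 normalized counts (13096) were tested with limma 3.58.1 on log2(value + 1), with 6 group means, 12 residual degrees of freedom, an intensity trend and Benjamini-Hochberg adjustment over all of them, called below 0.05. Fold changes are on that scale, which understates low genes. edgeR 4.0.16 and DESeq2 1.42.0 on recovered reads, other filters and pseudocounts, median centring, a replicate block, a correction for GENCODE 29 transcript length and leaving out libraries were alternatives. The scripts were tested on simulated data. The ± values are SE from the limma fit or SD over 3 libraries, as marked, and so reflect the spread between libraries. The floor given for COX6A2 covers counting error only.

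The members and lists were chosen with earlier results of these data known, and the groups of subunits by role after their values were seen. Genes named were the SDH genes, up to 4 called members per direction and comparison, the largest call per complex, isoform pairs, the extremes of level and the leading genes of the lists. Further genes (NDUFS1, the F1 genes, UQCRC1, UQCRC2, COX6B1, CYC1 and TFAM in some comparisons) were named after their values were seen.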

Additional observations from a re-analysis of the deposited data

How the results depend on the processing

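Counts of called genes among the 75 are compared here with those of the limma fit on all 18 libraries. The settings also changed the count over all 13096 tested genes, so a higher subunit count need not mark a larger change. With only the libraries compared in the fit, 61 genes were called for thapsigargin in Par cells (32 in the full fit), 0 in GemR siCont cells (4), 4 for GemR against Par in vehicle (19) and 13 for siSTIM1 against siCont in vehicle (38). Of all tested genes that setting called 6691 in Par cells (5253 in the full fit) and 2843 in GemR siCont cells (4402). With both libraries of steepest fall left out the counts were 61 for Par cells, 3 for GemR siSTIM1 cells (0), 38 for siSTIM1 against siCont under thapsigargin (11) and 49 for the response difference of GemR and Par (0). Of all tested genes 6890 were then called in Par cells and 3817 in GemR siSTIM1 cells (3187 in the full fit). With each library's length slope as a covariate there were 10 calls in GemR siSTIM1 cells (all higher), 54 in GemR siCont cells (53 lower, 1 higher) and 66 in Par cells (all lower). Of all tested genes the covariate setting called 5036, 6536 and 7170, in that order. Its counts were 51 for GemR against Par in vehicle and 67 and 34 for siSTIM1 against siCont in vehicle and under thapsigargin. They were 20 and 45 for the response differences GemR minus Par and siSTIM1 minus siCont. With the length trend removed the counts were 1 for GemR siSTIM1 cells, 25 for siSTIM1 against siCont under thapsigargin and 9 for the response difference GemR minus Par. In that setting the split was 15 higher and 10 lower for GemR against Par in vehicle. For siSTIM1 against siCont in vehicle it was 6 higher and 23 lower. The matching counts over all tested genes are not given here, nor those behind the 38 and 49 above, so these cannot be set against a share. Without the filter on low values GemR siSTIM1 cells and the response difference GemR minus Par each had 1, and a minimum mean of 50 gave that difference 1. Leaving out 1 library of the groups compared gave 18 to 30 in Par cells, 2 to 37 in GemR siCont cells, 10 to 37 and 25 to 31 for GemR against Par in vehicle and under thapsigargin (38), 20 to 62 and 9 to 17 for siSTIM1 against siCont in vehicle and under thapsigargin, and 0 to 33 and 0 to 2 for the 2 response differences. Since all groups share 1 estimate of the spread, leaving out GemR siCont vehicle library 1 also moved comparisons it is no part of, to 57 in Par cells, 2 (both higher) in GemR siSTIM1 cells, 51 for GemR against Par under thapsigargin and 25 for siSTIM1 against siCont under thapsigargin. Of all tested genes 23.9% were then higher and 24.2% lower in Par cells, and 15% and 15.7% in GemR siSTIM1 cells. For GemR against Par under thapsigargin these were 26.8% and 28.5%, and for siSTIM1 against siCont under thapsigargin 21.2% and 23.1%. UQCRC2, lower in siSTIM1 against siCont vehicle cells in the full fit, stood at 0.008 with the length trend removed. The cause of the other moves was not tested.

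Correlations of the deviations of same-numbered libraries ran from -0.177 to 0.491. They were over 0.1 at all 3 numbers for GemR siCont vehicle with GemR siSTIM1 thapsigargin, which are not compared directly, and for no other pair of groups, and the labels do not say what a number marks, so no pairing was assumed. With the number as a replicate block, 0 genes were called for thapsigargin in GemR siSTIM1 cells, 6 in GemR siCont cells and 41 in Par cells, 22 and 44 for GemR against Par in vehicle and under thapsigargin, 43 and 13 for siSTIM1 against siCont, and 2 and 0 for the response differences. With edgeR on 17 libraries these 9 comparisons, in the same order, gave 0, 4, 33, 20, 39, 26, 11, 0 and 0 calls, and with DESeq2 0, 4, 30, 20, 38, 26, 11, 0 and 0. A missed threshold does not show that values were alike.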

Other observations

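The inhibitor of ATP synthase hydrolysis, ATPIF1, averaged 955 normalized counts over the 18 libraries. Of 12 tested electron carrier genes, which make or carry ubiquinone and cytochrome c, 8 fell and 0 rose in siSTIM1 against siCont vehicle cells, where 21.1% of all tested genes fell, and 6 and 0 without GemR siCont vehicle library 1 (17.5% of all genes). Under thapsigargin 4 fell and 0 rose in GemR siCont cells, with and without that library (15.8% and 14.8% of all genes), and 1 fell and 1 rose in Par cells (19.7% and 20.5% of all genes). TFAM fell under thapsigargin in GemR siSTIM1 cells (-0.34 ± 0.07, SE, adjusted p = 0.000742), in GemR siCont cells (-0.58 ± 0.07, SE, adjusted p = 1.21e-06) and in Par cells (-0.24 ± 0.07, SE, adjusted p = 0.00846), and its response difference, GemR siCont minus Par, was -0.34 ± 0.10 (SE, adjusted p = 0.0184) in limma, and -0.38 without GemR siCont vehicle library 1. OGDH rose under thapsigargin in all 3 settings, at 0.28 ± 0.06 (SE, adjusted p = 0.00262) in GemR siSTIM1 cells, 0.34 ± 0.06 (SE, adjusted p = 0.000284) in GemR siCont cells and 0.26 ± 0.06 (SE, adjusted p = 0.00299) in Par cells. NDUFA4L2, a paralog of NDUFA4 known for its induction in hypoxia, rose in Par cells under thapsigargin (0.90 ± 0.31, SE, adjusted p = 0.0273). Its level was low, with averages of 40.2 normalized counts in Par thapsigargin cells and 21.9 in Par vehicle cells.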
